A study of Neurospora crassa with 30 samples.

Results

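The transcriptional response of *Neurospora crassa* to a pentose, xylose, was compared with its response to an aldohexose, mannose. All 3 samples labelled xylose and all 3 labelled mannose were taken, 6 of the 30 samples in a series that exposed 1 strain to 10 carbon sources. The filamentous fungus was the wild type strain FGSC 2489, and every sample was mycelium. Shaken cultures (200 rpm, 25°C, constant light) had 16 h on 2% sucrose in 3 mL of Vogel's medium (VMM), were washed, and had a further 4 h on 2 mM xylose or 2 mM mannose. The growth on sucrose and the wash in medium without a carbon source were common to both groups, so the comparison is between 2 sugars given at 1 concentration and 1 time. The other 24 samples (avicel, cellobiose, fructose, glycerol, maltose, sorbose, trehalose and xyloglucan, 3 each) served to place both groups, although avicel and xyloglucan are polymers and were not supplied at 2 mM.

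D-xylose is the backbone sugar of xylan, the main hemicellulose of many plant cell walls. Filamentous fungi reduce it to xylitol, oxidise xylitol to xylulose and phosphorylate xylulose, which then enters the pentose phosphate pathway, and in *N. crassa* the transcription factor XLR-1 is needed for xylanase expression and growth on xylan. Mannose is an epimer of glucose, is phosphorylated by hexokinases, and enters glycolysis after mannose-6-phosphate isomerase has made fructose-6-phosphate, or is used to build the mannoproteins of the cell wall.

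RNA-seq gave 15121966 to 19300216 counts on genes in the xylose samples and 13445035 to 18906096 in the mannose samples. Levels are given as CPM, the counts of a gene for each 1000000 counts of the library size scaled by TMM (trimmed mean of M-values), and the values of a gene are listed in the order replicate 1, 2 and 3. Mannose replicate 2 stood apart. It differed by more than 2-fold from mannose replicate 1 in 4.13% of the tested genes and from mannose replicate 3 in 5.55%, whereas replicates 1 and 3 differed in 0.647%. The pairs of xylose replicates differed in 0.976% to 1.49%, and the highest value among the other 28 pairs of replicates in the series was 2.6%. Reads that mapped to several places made up 2.08% to 2.5% of reads in mannose and 0.966% to 1.33% in xylose, and the 10 most abundant genes took 10.2% to 13.3% of gene counts in mannose and 8.23% to 9.08% in xylose. A list of 6 markers of conidia and aerial hyphae, cell types that a mycelial culture can hold, summed to 27480 to 53259 CPM in mannose and 21253 to 22830 CPM in xylose, with 2 of the 6 (*ccg-1* and *con-8*) higher in mannose by the test. The largest values in the sum were those of *ccg-1* (means of 25905 CPM in mannose and 9126.5 CPM in xylose) and *eas* (11264 and 10869 CPM, not called). *con-6*, *con-10* and *fl* were not called either. The part of conidia and aerial hyphae in the differences that follow was not tested, and in bulk RNA fewer cells of a type and less RNA per cell cannot be told apart.

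Xylose and mannose gave different transcriptomes. Of 8501 genes tested, 862 (10.1%) were more than 2-fold higher in xylose at an adjusted p below 0.01, and 569 (6.69%) were lower. These 2 criteria define a called gene throughout, and "rose" and "fell" refer to xylose relative to mannose (n = 3 per sugar). Changes are given as log2 fold changes. A value after ± is a standard error worked out from the fold change and the F statistic of the fit over all 30 samples. It is not the spread of the 3 samples of a sugar. The median fold was 2.866 for the genes that rose and 2.732 for those that fell. At least a 16-fold difference was found for 29 genes that rose and 16 that fell. The values of the xylose and mannose samples did not overlap for 852 of the genes that rose and 540 of those that fell, against 51.3% of all genes tested. The calls were made on the same samples, so this difference largely follows from the calls. With mannose replicate 2 left out, 906 genes rose, 782 of them among the 862, and 639 fell, 488 of them among the 569. The plot of all tested genes shows changes on both sides over the whole range of expression.

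**Figure D1:**
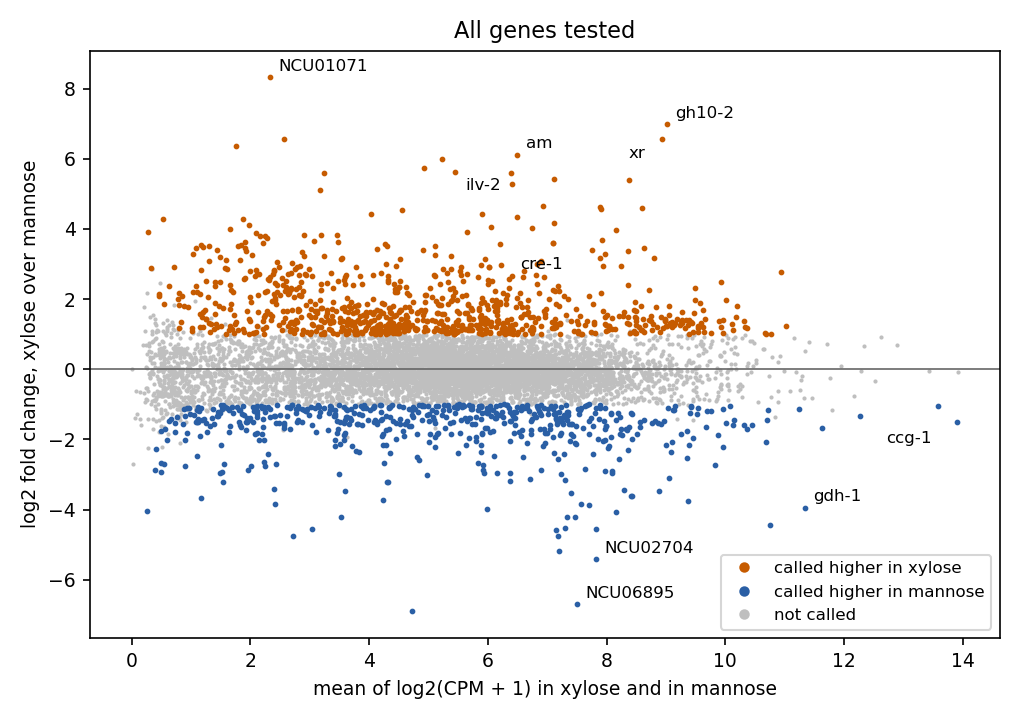
Log2 fold change, xylose over mannose, of each of the 8501 genes tested (vertical axis) against the mean of its log2(CPM + 1) in the xylose and the mannose samples (horizontal axis). Orange points are the 862 genes that rose, blue points the 569 that fell and grey points the genes not called. The names mark a few genes of the text, with *gh10-2* and *xr* high in level and in fold change, and *gdh-1*, at -3.94, and *ccg-1*, at -1.51, on the side of mannose.

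Both sugars were also set against the other 8 carbon sources. Mannose departed from them in more genes than xylose did. In mannose 13.7% of genes were called, 493 (5.8%) higher and 671 (7.89%) lower than the mean of the other 8, and in xylose 3.07% were called, 182 (2.14%) higher and 79 (0.929%) lower. Both contrasts use the same 24 samples. A call against the other sources refers throughout to their mean, so single sources can lie on the other side. Among the 862 genes that rose, the median log2 difference from the other sources was 0.29 in xylose and -1.21 in mannose, and among the 569 that fell it was -0.33 in xylose and 1.12 in mannose. Both sets were called on the same xylose and mannose samples, so the signs of these medians are partly built in.

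Genes for the first steps of xylose breakdown were among the strongest responses. Of 4 genes of pentose catabolism, 3 rose (75.0%, against 10.1% of all genes tested). The list median was 3.90 on the log2 scale, against -0.03 for all genes tested. *xr* (NCU08384), which encodes the xylose reductase, was at 4969.8, 4573 and 4536 CPM in xylose and at 36.8, 86.9 and 26.1 CPM in mannose (6.56 ± 0.37, adjusted p = 1.3e-12). The xylose samples lay close together and far above every mannose sample, and replicate 2 was the highest of the mannose samples (7.23 without it). NCU00891, the xylitol dehydrogenase of the next step, was at 1400.4, 1129 and 976 CPM in xylose and at 57.7, 41.5 and 41.5 CPM in mannose (4.64 ± 0.21, adjusted p = 3.5e-14). *xyk-1*, the xylulose kinase, was at 744, 749 and 611 and 68.9, 93.7 and 72.2 CPM (3.16 ± 0.17, adjusted p = 1.0e-12), again without overlap. The estimated fold difference was smaller at each step of the pathway, an order that was not tested. All 3 genes were called higher in xylose than in the mean of the other 8 sources (5.84, 3.78 and 3.40) and none was called in mannose. For *xr* that mean covers unlike sources. Avicel reached a mean of 3144.7 CPM, against 4693.0 CPM in xylose and 157.28 CPM in cellobiose, the next highest. The fourth gene, NCU01704, annotated as a xylose dehydrogenase, was at 479, 410.4 and 481 CPM in xylose and 553, 926 and 379.7 CPM in mannose and was not called (-0.44).

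The pentose phosphate pathway, which takes up xylulose-5-phosphate, was divided. Of 5 genes, 2 rose and 1 fell. NCU01328, a transketolase of the non-oxidative branch, rose by 1.18 ± 0.10, adjusted p = 1.1e-09, and xylose had its highest mean of all 10 carbon sources. NCU07143, a 6-phosphogluconolactonase of the oxidative branch, rose by 1.75, whereas NCU11370, annotated as 6-phosphogluconate dehydrogenase 2, fell (-1.39, from 152, 486 and 129 CPM in mannose to 87.8, 100.1 and 103 CPM in xylose). Without mannose replicate 2 the difference of NCU11370 was -0.53, so that 2 of the 5 rose and none fell, and in a fit of the 6 samples alone it was not called (adjusted p = 0.052). *ppm-1* and *ppm-2* were not called (0.57 and 0.83).

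Genes for the breakdown of xylan reached high levels in xylose, although no xylan was supplied. Of 19 genes, 9 rose (47.4%, against 10.1% of all genes tested) and 3 fell (15.8%, against 6.69%). The list median was 1.71, and the counts were the same without mannose replicate 2. The summed level of the list was 16650 to 20424 CPM in the xylose samples and 1797 to 1888 CPM in the mannose samples. *gh10-2*, which encodes an endo-xylanase of glycoside hydrolase family GH10 that cuts the xylan backbone, was at 5512, 5119 and 6746 CPM in xylose and 34.3, 62.9 and 38.7 CPM in mannose (6.998 ± 0.44, adjusted p = 6.9e-12). *gh11-2*, an endo-xylanase of family GH11, was at 1701, 2003 and 2734 and 58.4, 39.8 and 54.9 CPM (5.39 ± 0.63, adjusted p = 1.4e-07). All xylose values of both genes exceeded all mannose values, and for each the spread among replicates was small beside the difference.

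Enzymes that release xylose from short chains or remove side groups rose as well. The family GH3 genes *gh3-8* and *gh3-7* were at 248, 268 and 301 CPM and 176, 189 and 224 CPM in xylose, and at 3.08, 2.24 and 7.04 CPM and 3.08, 4.22 and 3.60 CPM in mannose (6.01 ± 0.27 and 5.75 ± 0.36), and without mannose replicate 3 the difference of *gh3-8* was 6.69. The beta-xylosidase NCU09652 rose by 3.19, the xylosidase/arabinosidase NCU01900 by 5.42, and the acetylxylan esterase NCU05159, which takes acetyl groups off the backbone, by 3.70. NCU02343, an alpha-L-arabinofuranosidase, was already at 738, 805 and 712 CPM in mannose and reached 5094, 4943 and 5464 CPM in xylose (2.78), the smallest increase of the 9. The ninth, NCU06143 of family GH115, rose by 3.38. For all 9 the highest mean among the other 8 carbon sources was in avicel, and xylose ranked above avicel for 6 of them.

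The remaining members of the list were at low levels or went the other way. *gh10-1* was at 19.3, 33.2 and 35.6 CPM in xylose and 10.1, 7.49 and 9.42 CPM in mannose. Its groups did not overlap, but it missed the threshold (1.71 ± 0.57, adjusted p = 0.013). The 3 genes that fell were NCU03181, an acetylxylan esterase (-1.55), NCU04885, an alpha-xylosidase of family GH31 (-1.51), and NCU09170, an alpha-N-arabinofuranosidase (-1.42), for which mannose replicate 2 (81.7 CPM) lay within the range of the xylose samples. NCU09170 was not called without mannose replicate 3 (-0.91) or in a fit of the 6 samples alone (adjusted p = 0.0418), in which *gh10-1* was called (1.73, adjusted p = 0.00188). None of the 7 genes that were not called exceeded 85.2 CPM in any of the 6 samples.

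**Figure D2:**
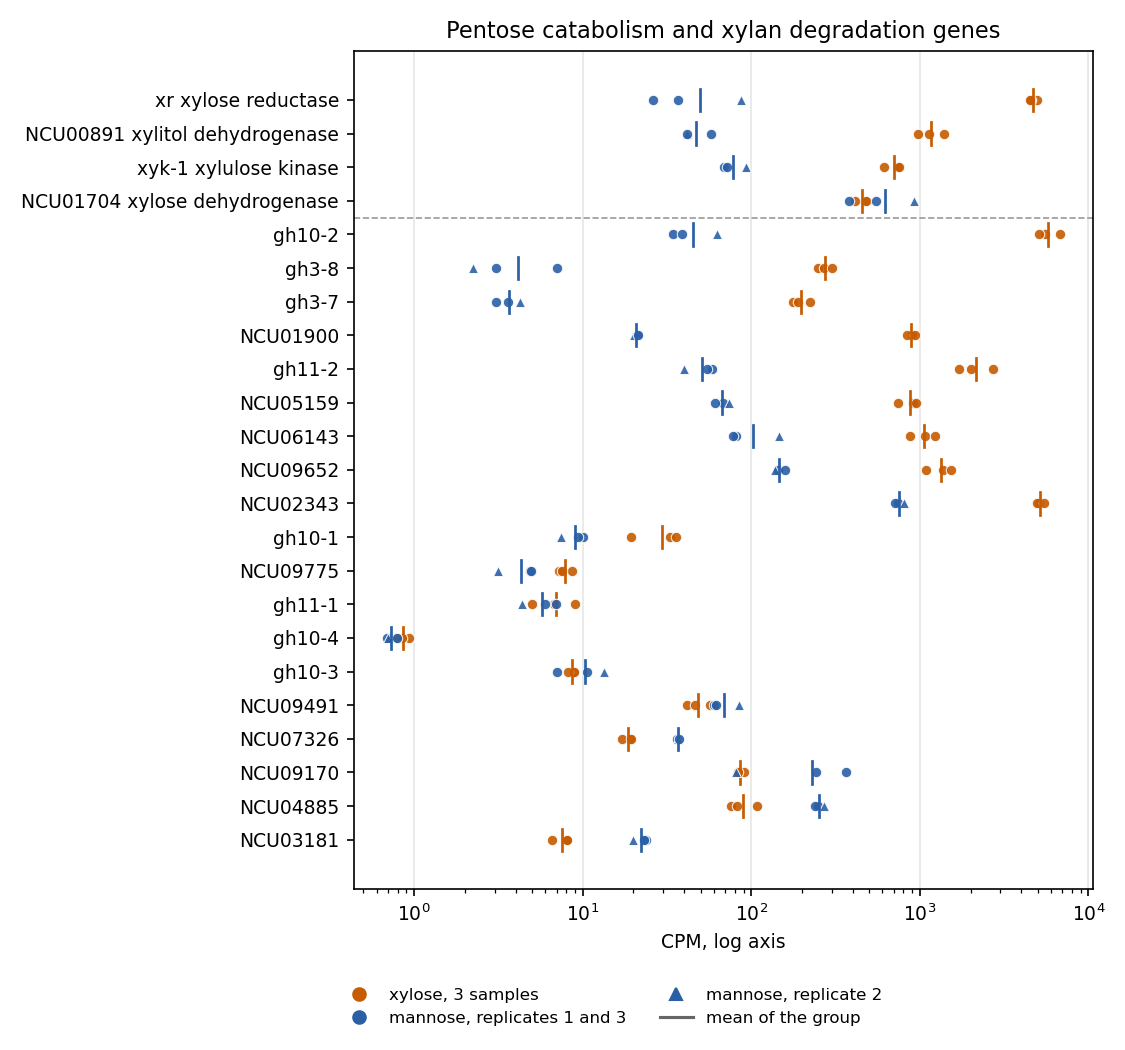
CPM (logarithmic axis) of the 4 genes of pentose catabolism, above the dashed line, and the 19 genes of xylan degradation, below it. Each symbol is 1 sample, orange for xylose and blue for mannose with replicate 2 as a triangle, and vertical bars are group means. The 3 xylose samples of *xr*, NCU00891, *xyk-1* and the 9 xylan genes that rose lie to the right of all 3 mannose samples.

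None of the genes kept for cellulose degradation rose, nor did the 1 gene kept for mannan degradation. Of 21 genes of cellulose degradation 5 fell (23.8%, against 6.69% of all genes tested) and 16 were not called. The list median was -0.65. Of the 21, 3 fell without mannose replicate 2. *cbh-1*, the main cellobiohydrolase, was at 44.9, 34.0 and 54.5 CPM in xylose, 78.1, 57.6 and 74.1 CPM in mannose and a mean of 23500.0 CPM in avicel, a crystalline cellulose. Both sugars left it far below the avicel level, and it was not called between them (-0.65). The strongest fall was *gh3-4*, a beta-glucosidase (-2.68 ± 0.32, adjusted p = 1.9e-07), followed by the calls of *gh61-7*, *gh1-1*, *gh61-6* and *gh7-1* between -1.67 and -1.07. Of these, *gh61-7* and *gh7-1* were called neither without any 1 of the xylose samples (-1.79 to -1.49 and -1.12 to -1.004) nor without mannose replicate 1 (-1.75 and -1.04) or 2 (-1.21 and -0.98). The only gene of mannan degradation kept, *gh2-1*, a beta-mannosidase, was not called (-0.45). A further listed gene, NCU08412, was left out because it had no annotation. The response of mannan degradation was thus not tested beyond *gh2-1*. Of 8 pectin genes 1 rose (*asd-1*, a rhamnogalacturonase, 1.48) and 1 fell (*gh28-2*, an exopolygalacturonase, -1.86), and without mannose replicate 2, 2 fell. Among all genes tested 10.1% rose and 6.69% fell, and 1 gene was 12.5% of the pectin list. Of 8 genes for starch, maltose and trehalose 2 rose, *inv* (invertase, 1.28) and NCU08746, a starch-binding protein (1.06), and NCU08131, an alpha-amylase, fell (-1.14). NCU08746 and *inv* were not called without xylose replicate 2 (0.90 for each), nor *inv* without mannose replicate 3 (1.18). In a fit of the 6 samples alone *gh61-7*, *asd-1* and *inv* were not called (adjusted p = 0.0116, 0.0288 and 0.0203).

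Sugar transporters changed in both directions, 6 of 22 up (27.3%) and 3 down (13.6%), with a list median of 0.39. Of all genes tested, 10.1% rose and 6.69% fell. *cdt-2*, which carries cellodextrins and xylodextrins, was at 2013, 1789 and 1865 CPM in xylose and 66.4, 110.0 and 58.6 CPM in mannose (4.59 ± 0.26, adjusted p = 1.5e-12). Every xylose value exceeded every mannose value, and *cdt-2* was also higher in xylose than in the other sources (3.68). NCU04537, a monosaccharide transporter, was at 83.2, 43.4 and 25.3 and 6.92, 7.10 and 5.13 CPM (2.99 ± 0.41). NCU05627, known as a transporter of xylose under the name *xyt-1*, and *hgt-1*, a glucose transporter, rose by 2.41 and 1.69, and NCU05897, annotated as an L-fucose permease, rose by 1.90. These 4 differed in another way from *cdt-2*, since each was called lower in mannose than in the other sources (-2.59, -2.95, -2.06 and -1.84) and none was called in xylose. NCU04963, a glucose transporter, rose by 1.04 although its groups overlapped, and was not called without xylose replicate 1 or 2 or mannose replicate 1 or 3 (0.75 to 0.93) or in a fit of the 6 samples alone (adjusted p = 0.0808).

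The transporter that fell most was NCU08152, annotated as a high affinity glucose transporter. It was at 2.29, 1.295 and 2.92 CPM in xylose and 41.4, 32.6 and 48.4 CPM in mannose (-4.21 ± 0.36, adjusted p = 1.1e-09), lower than the other sources in xylose (-2.13) and higher in mannose (2.08). The maltose permease genes NCU06522 and NCU01868 fell by 2.17 and 1.82 on the log2 scale. The counts were 8 up and 4 down without mannose replicate 2.

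NCU02322, the mannose-6-phosphate isomerase that brings mannose into glycolysis, was at 71.8, 87.2 and 98.8 CPM in xylose and 63.2, 52.4 and 61.9 CPM in mannose. The groups did not overlap, and the difference of 0.54 ± 0.19 was below the 2-fold criterion. The isomerase was called higher than in the other 8 sources in xylose (1.75) and in mannose (1.21). Of the 15 genes of mannose activation and mannosylation 3 rose (20.0%, against 10.1% of all genes tested) and none fell, with a list median of 0.34. They were NCU08232, an Och1-type mannosyltransferase (1.44), NCU01648, a protein mannosyltransferase (1.04), and NCU06198, the GDP-mannose transporter (1.02). The latter 2 were not called without xylose replicate 1 (0.95 and 0.91), and without mannose replicate 2, 4 of the 15 rose.

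Of the 3 genes annotated as a glucokinase or hexokinase, 1 fell in xylose and none rose. *emp-1* (NCU02542), of the same list of glycolysis genes, has no product name in the sources used. It was left out of this count and was not called. NCU02702, annotated as a glucokinase, was at 55.6, 59.3 and 54.0 CPM in xylose and 182, 377 and 208 CPM in mannose (-2.18 ± 0.23, adjusted p = 3.1e-08), and mannose had its highest mean of all 10 sources. NCU00575, also annotated as a glucokinase, was at 599, 888 and 472 and 333, 388 and 314 CPM and was not called (0.92), and mannose had its lowest mean of the 10. It was called without mannose replicate 2 (1.01) or xylose replicate 3 (1.11). The hexokinase NCU04728 was not called (-0.49). Over glycolysis and fermentation, 4 of 19 genes rose (21.1%, against 10.1% of all genes tested) and 1 fell (5.26%, against 6.69%), with a list median of 0.54. The 4 were *cfp*, the pyruvate decarboxylase (3.29), *emp-6*, a phosphoglycerate mutase (2.09), *ace-8*, the pyruvate kinase (1.17), and *emp-7*, the enolase (1.01). *cfp* was at 1002, 884 and 469 CPM in xylose and 106, 82.4 and 52.0 CPM in mannose, and mannose had the lowest mean of the 10 sources for *cfp*, *emp-6* and *ace-8*. *adh-1*, an alcohol dehydrogenase, varied widely among the mannose samples (4139, 9906 and 1908 CPM) and was called without mannose replicate 3 (-1.57) but not with all samples (-1.17 ± 0.49, adjusted p = 0.046) or without mannose replicate 2 (-0.35). Without mannose replicate 2, *ace-8* and *emp-7* were not called (0.94 and 0.87), and *emp-7* was not called without xylose replicate 1 or 2 (0.97 and 0.94).

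Genes of gluconeogenesis and the glyoxylate cycle were higher in mannose. Of 5 genes, 4 fell in xylose (80.0%, against 6.69% of all genes tested) and none rose, with a list median of -1.77. *acu-3*, isocitrate lyase of the glyoxylate cycle, was at 206, 118 and 121 CPM in xylose and 164, 1938 and 88.1 CPM in mannose (-2.30 ± 0.67, adjusted p = 0.0052). The groups overlapped, and only mannose replicate 2 stood above the xylose samples. *fbp-1*, fructose-1,6-bisphosphatase, was at 305, 263 and 245 and 477, 1289.5 and 478 CPM (-1.46), *acu-6*, phosphoenolpyruvate carboxykinase, at 393, 369.8 and 306 and 704, 1249 and 1681 CPM (-1.77), and *acu-9*, malate synthase, at 265, 219.5 and 234 and 911, 1836 and 933 CPM (-2.36). These 3 genes did not overlap between the sugars, and replicate 2 was the highest mannose sample of *fbp-1* and *acu-9*. Without mannose replicate 2, 2 of the 5 fell, 1 rose and the list median was -0.81, so the result depended on that sample. The difference was then 0.24 for *acu-3* and -0.81 for *fbp-1*, and *acu-3* was also not called without xylose replicate 2 or 3 (-2.16 and -2.17). In a fit of the 6 samples alone 2 of the 5 fell, and *acu-3* and *fbp-1* were not called (adjusted p = 0.12 and 0.0219). Of 16 genes of the tricarboxylic acid cycle 2 fell (12.5%, against 6.69% of all genes tested), *tca-2* (-1.84) and *tca-14* (-1.11). Without mannose replicate 2, 1 rose and 2 fell. *tca-14* was not called without xylose replicate 2 or 3 or mannose replicate 1 (-0.92, -1.12 and -0.91). The difference of *tca-2* was -1.09 without mannose replicate 2. Neither gene was called in a fit of the 6 samples alone (adjusted p = 0.0216 for *tca-2* and 0.0106 for *tca-14*), in which none of the 16 was called.

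Of 11 genes for nitrogen assimilation and uptake 5 rose (45.5%, against 10.1% of all genes tested) and 1 fell (9.09%, against 6.69%). The other 5 were not called, the list median was 0.73, and the counts were the same without mannose replicate 2. *am*, the NADP-dependent glutamate dehydrogenase that fixes ammonium into glutamate, was at 819, 689 and 646 CPM in xylose and 10.7, 13.4 and 6.99 CPM in mannose (6.12 ± 0.42, adjusted p = 3.2e-11). Mannose had the lowest mean of all 10 sources. It was called lower than the mean of the other 8 (-4.54), and xylose was called higher (1.57). Trehalose (2707.8 CPM) and cellobiose (940.17 CPM) had higher means than xylose (717.93 CPM). *nit-3*, nitrate reductase, was at 41.3, 53.4 and 45.5 and 7.38, 9.47 and 8.94 CPM (2.44 ± 0.22), and *nit-6*, nitrite reductase, at 947, 1286 and 1137 and 37.7, 145 and 31.0 CPM (3.98 ± 0.41). The difference of *nit-6* was 5.03 without mannose replicate 2, its highest mannose sample. Neither gene overlapped between the sugars, and both were called higher in xylose (1.13 and 1.84) and lower in mannose (-1.31 and -2.14) than in the other sources. NCU03257, an ammonium transporter, rose by 2.59 and NCU07334, a uracil permease, by 1.63. The glutamine synthetase genes *gln-1* and *gln-2* (0.73 and 0.22) and the regulator *nit-2* (0.46) were not called. *mtr*, a permease for neutral amino acids, fell. Its level was 72.3, 60.6 and 25.2 CPM in xylose and 376, 595 and 284 CPM in mannose (-2.99 ± 0.36, adjusted p = 2.1e-07), and xylose had the lowest mean of the 10 sources.

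**Figure D3:**
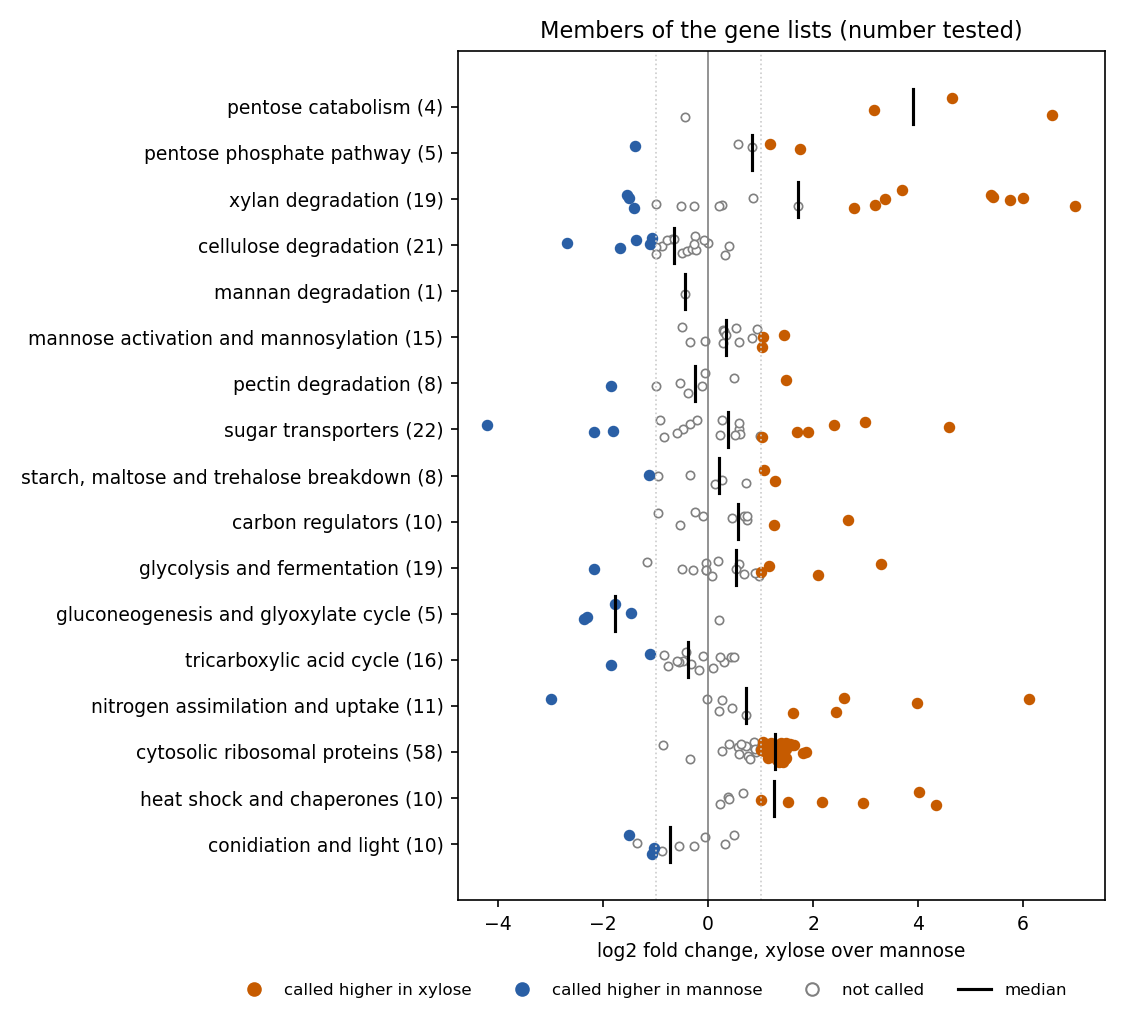
Log2 fold change, xylose over mannose, of each gene in the 17 lists (points) with the median of the list (bar). Orange marks genes that rose, blue genes that fell and grey genes not called. Ribosomal proteins, chaperones and nitrogen genes lie mostly to the right, and cellulose, gluconeogenesis and conidiation genes mostly to the left.

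Genes for cytosolic ribosomal proteins were higher in xylose as a group. Of 58 genes 42 rose (72.4%, against 10.1% of all genes tested) and none fell, with a list median of 1.27. Without mannose replicate 2, 39 rose. In a test for a change beyond 2-fold, rather than against no change, 10 of the 58 rose. The log2 fold changes of all 58 ran from -0.85 to 1.86, and 56 were above 0. The list summed to 44161 to 52985 CPM in the xylose samples and 19126 to 23145 CPM in the mannose samples, without overlap. Against the other 8 sources, 29 of the 58 were called lower in mannose (7.89% of all genes tested were) and none was called in xylose.

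Heat shock and chaperone genes followed the same direction, with 6 of 10 up and none down (median 1.26). *hsp70-2* was at 499, 414 and 357 CPM in xylose and 30.9, 24.3 and 23.3 CPM in mannose (4.02 ± 0.19, adjusted p = 6.6e-14), *hsp70-1* rose by 2.95, and *hsp60*, the mitochondrial chaperonin, by 2.18. For these 3 and for *hsp80* (1.51) and *hsp70-5* (1.01) mannose had the lowest mean of the 10 sources. NCU07232, a small heat shock protein of the HSP30 kind, differed from them. It was at 332, 563 and 284 CPM in xylose and 15.6, 17.6 and 24.9 CPM in mannose (4.34 ± 0.71), and was called higher in xylose than in the other sources (3.01). *hsp30*, *hsp88*, *hsp98* and NCU00714 were not called, nor was *hsp70-5* without xylose replicate 1 or mannose replicate 3 (0.95 and 0.99).

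Of 10 regulators of carbon and nitrogen use, 2 rose (20.0%, against 10.1% of all genes tested) and none fell (median 0.57). *cre-1*, the repressor of genes for less preferred carbon sources, was at 213, 243 and 174 CPM in xylose and 29.3, 40.3 and 29.4 CPM in mannose (2.67 ± 0.21, adjusted p = 3.3e-10). The groups were well apart, mannose had the lowest mean of the 10 sources (-2.91 against the other 8), and xylose was not called against them (-0.24). NCU01856, the HAC1 activator of the unfolded protein response, rose by 1.26. *xlr-1*, the regulator of xylan genes, was at 92.5, 98.1 and 114 CPM in xylose and 126, 102 and 134 CPM in mannose and was not called (-0.25), with overlapping groups. *col-26* (0.74), *clr-1* (0.68) and *clr-2* (-0.09) were not called either. Of the 10, 3 rose without mannose replicate 2.

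Conidiation and light genes were lower or not called in xylose, with 3 of 10 down and none up (median -0.72). *ccg-1*, a clock-controlled gene and the most abundant of them, was at 6607, 10309 and 10463 CPM in xylose and 25867, 16158 and 35689 CPM in mannose (-1.51 ± 0.27, adjusted p = 5.2e-05). *con-8* and *con-13* fell (-1.07 and -1.04), *con-6* missed the threshold (-1.36 ± 0.43, adjusted p = 0.0103), and the groups overlapped for *con-8* and *con-6*. The rodlet gene *eas* was at 13336, 10430.0 and 8841 CPM in xylose and 13361, 9807 and 10624 CPM in mannose and was not called (-0.05). Leaving out xylose replicate 1, mannose replicate 1 or mannose replicate 3 ended the calls of *con-8* (-0.93 to -0.80) and *con-13* (-0.99 to -0.92), the latter also without xylose replicate 2. Without mannose replicate 2, 4 of the 10 fell, and *con-6* was called (-1.81), against -0.65 without mannose replicate 3. In a fit of the 6 samples alone none of the 10 was called, with an adjusted p of 0.0132 for *ccg-1*, 0.0624 for *con-8* and 0.0153 for *con-13*.

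The 10 largest increases and the 10 largest decreases were taken from called genes with at least 10 CPM in the higher group and no overlap. The increases included *gh10-2*, *xr*, *am*, *gh3-8* and *gh3-7*, given above. The largest was NCU01071, without a product name in the sources used. It had 85, 381 and 762 counts in xylose and 2, 0 and 1 in mannose, or 5.25, 24.7 and 37.8 CPM and 0.154, 0 and 0.0529 CPM. With 3 counts in all in mannose, the ratio of the summed counts corrected for library size, xylose over mannose, was 376 (95% exact interval 128 to 1824, counting error only). The fitted change (8.32 ± 0.77, adjusted p = 8.4e-09) depends on the prior count, and was 9.28 without mannose replicate 1 and 7.72 without xylose replicate 3. Its highest mean in any other source was 0.210 CPM, in avicel. NCU07224 (6.56), NCU04400 (5.62) and NCU08095 (5.61) have no named function either. *ilv-2*, the ketol-acid reductoisomerase of isoleucine and valine synthesis, was at 494, 506 and 669.9 CPM in xylose and 15.1, 11.8 and 8.15 CPM in mannose (5.58 ± 0.37, adjusted p = 1.9e-11). Of the 10, all were called higher in xylose than in the mean of the other 8 sources, and xylose ranked first of 10 for 6. The genes were chosen for high values in the same xylose samples, so these calls and ranks are partly built in. Avicel lay above xylose for NCU07224 and NCU04400, trehalose for *am* and *ilv-2*, and cellobiose for *am*. Only *am* and *ilv-2* were called in mannose, both lower.

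The 10 largest decreases included enzymes that break down amino acids. NCU01830, 4-hydroxyphenylpyruvate dioxygenase of tyrosine breakdown, was at 2.60, 0.972 and 2.28 CPM in xylose and 269.8, 30.1 and 407 CPM in mannose (-6.89 ± 0.67, adjusted p = 9.0e-09, and -6.24 without mannose replicate 3), and NCU05499, homogentisate 1,2-dioxygenase, the next enzyme of that pathway, fell by 4.76 on the log2 scale. NCU02704, the E2 component of the branched-chain alpha-keto acid dehydrogenase, was at 55.7, 24.03 and 22.9 and 2006, 741 and 1645 CPM (-5.42 ± 0.69, adjusted p = 5.2e-07). NCU02936, proline oxidase, was at 44.3, 27.8 and 24.8 and 913, 395 and 925 CPM (-4.53 ± 0.42, adjusted p = 3.7e-09). In all 3 of these the xylose samples were uniformly low, mannose replicates 1 and 3 were the highest, and replicate 2 lay between. NCU01402, indoleamine 2,3-dioxygenase of tryptophan breakdown, was at 1.05, 1.55 and 1.14 CPM in xylose and 13.8, 2.94 and 70.5 CPM in mannose (-4.56 ± 0.73, adjusted p = 1.3e-05). Its mannose samples differed widely, the difference was -2.72 without mannose replicate 3, and in a fit of the 6 samples alone it was not called (adjusted p = 0.0142). NCU06895, a cytochrome P450 (-6.69), and NCU11289, an aldo-keto reductase (-4.75), also belonged to the 10, with NCU03761, NCU07718 and NCU03913, which have no named function. Replicate 2 lay between the xylose samples and the other mannose samples for all 10.

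A wider list of 29 annotated genes of amino acid breakdown was drawn up after these values were seen, so its counts are descriptive. Of the 29, 16 fell (55.2%, against 6.69% of all genes tested) and 3 rose (10.3%, against 10.1%). The list median was -2.91, and the counts were the same without mannose replicate 2. The list summed to 1620 to 2039 CPM in the xylose samples and 7688 to 14941 CPM in the mannose samples. The genes that fell ranged from -6.89 to -2.18, and replicate 2 was the lowest mannose sample for 14 of the 16. They covered successive steps of leucine breakdown, with NCU04292, a branched-chain amino acid aminotransferase (-3.97), NCU02126, isovaleryl-CoA dehydrogenase (-3.85), and NCU00591 and NCU02127, the alpha and beta subunits of methylcrotonoyl-CoA carboxylase (-3.75 and -3.87). In tyrosine breakdown they included NCU09116, an aromatic aminotransferase (-3.52), and NCU05537, fumarylacetoacetase (-4.20), beside the dioxygenases NCU01830 and NCU05499. NCU03076, the pyrroline-5-carboxylate dehydrogenase that follows proline oxidase, was at 168, 122 and 130.3 CPM in xylose and 1917, 944 and 1835 CPM in mannose (-3.48), and *aga-1*, arginase, fell as well (-2.91). The 3 genes that rose were NCU00792, annotated as a branched-chain amino acid aminotransferase (1.40), NCU02084, annotated as an arginase (1.63), and NCU10110, annotated as a 3-hydroxyisobutyrate dehydrogenase (2.98), each with a counterpart of the same annotation that fell. In a fit of the 6 samples alone 14 of the 29 fell and 2 rose, without a call of NCU01402 or NCU00792 (adjusted p = 0.0142 and 0.0125). *gdh-1*, the NAD-dependent glutamate dehydrogenase that releases ammonium from glutamate, was also picked after its values were seen. It was at 783, 753 and 455 CPM in xylose and 13008, 6037 and 11522 CPM in mannose (-3.94 ± 0.45, adjusted p = 1.0e-07), the opposite direction to *am*. Xyloglucan had the highest mean among the other 8 sources for 14 of the 16 genes that fell, and mannose ranked first of 10 for 12. The 16 were picked by calls on the same mannose samples, which favours a high rank of mannose.

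**Figure D4:**
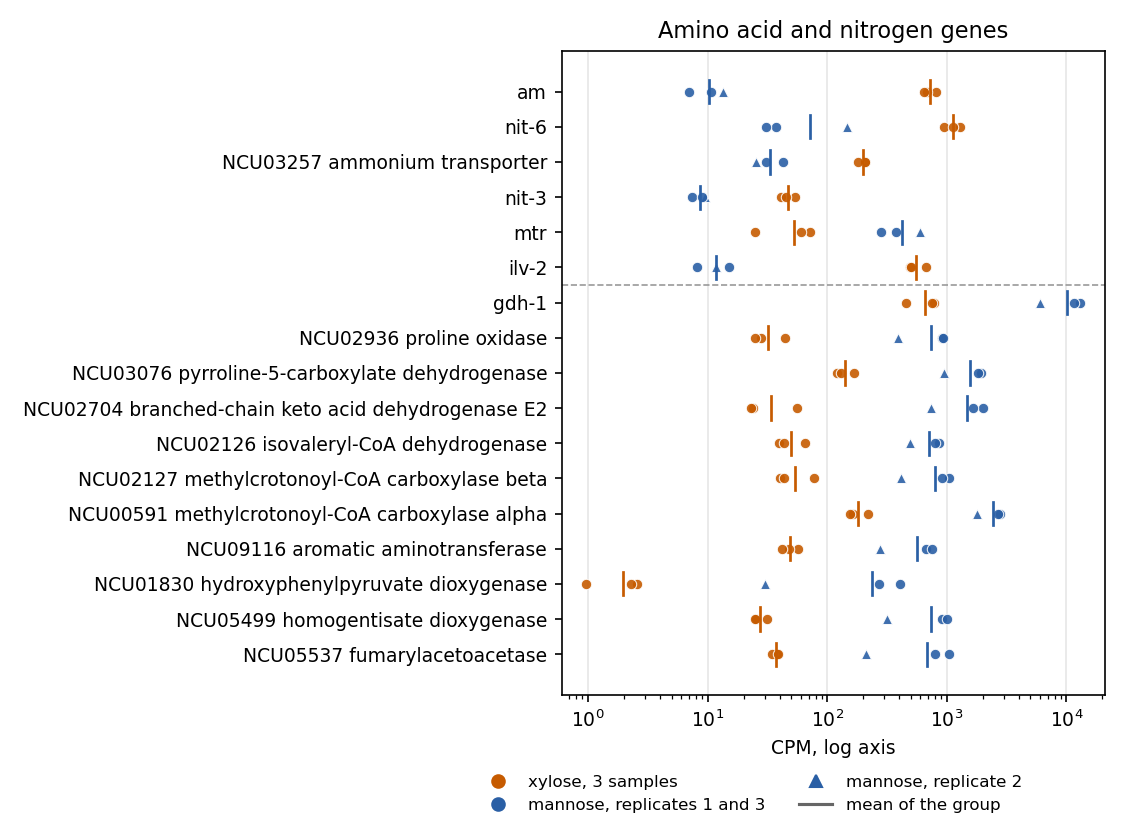
CPM (logarithmic axis) of 6 nitrogen and amino acid genes from the lists and the 10 largest increases, above the dashed line, and of *gdh-1* and 10 genes of amino acid breakdown, below it. Each symbol is 1 sample, orange for xylose and blue for mannose with replicate 2 as a triangle, and vertical bars are group means. Xylose lies to the right of mannose in 5 of the upper 6 genes, all but *mtr*, and to the left in all 11 lower genes, where replicate 2 is the mannose sample nearest to xylose.

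The other carbon source with the highest mean was noted for each of these 20 genes. For the 10 increases the highest mean outside the pair was in avicel for 7 genes, in trehalose for 2 and in glycerol for 1, and xylose ranked first of 10 for 6. For the 10 decreases it was in xyloglucan for 9 and in sorbose for 1, and mannose ranked first or second for all 10. All 10 decreases were called higher in mannose than in the other 8 sources, and 2 were called in xylose. The decreases were chosen for high values in the same mannose samples, so their ranks and calls in mannose are partly built in.

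**Figure D5:**
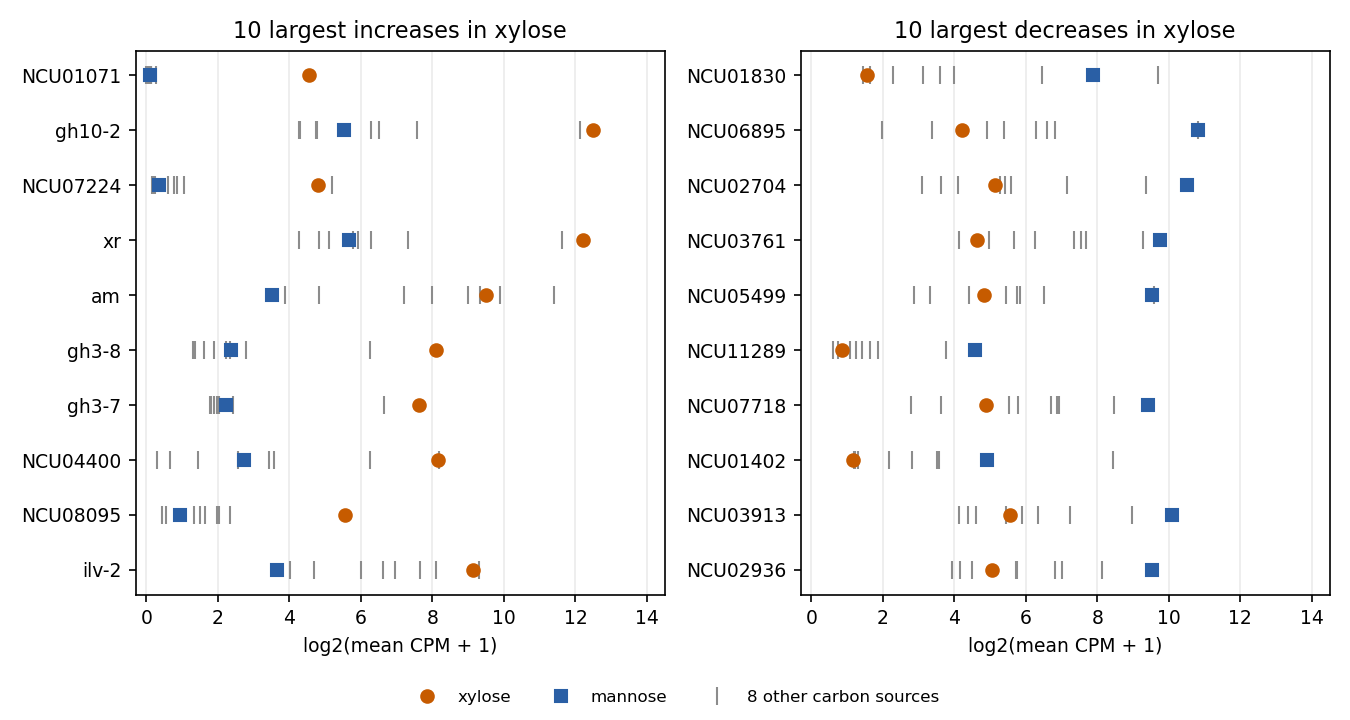
Mean level, as log2(mean CPM + 1), in xylose (orange), mannose (blue) and each of the 8 other carbon sources (grey ticks) for the 10 genes with the largest increase (left) and the 10 with the largest decrease (right), 3 samples per mean. On the left most grey ticks lie nearer to mannose except for *am* and *ilv-2*, where mannose lies below all of them, and on the right most lie nearer to xylose.

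Called genes also occurred side by side. Among neighbouring tested genes, 22 runs of at least 3 genes rose together (72 genes) and 19 fell together (61 genes), and the longest held 5 genes, NCU05350 to NCU05354 on chromosome II (1400284 to 1409407, assembly NC12), with log2 fold changes from 1.801 to 3.502. *gh10-2* stood at the end of a run with NCU07511 and NCU07510 on chromosome III (4573918 to 4599913), in which the log2 fold changes were 3.80 to 6.998. *gh3-7* stood beside NCU09924, of glycoside hydrolase family GH93, and NCU09926 on chromosome IV (5276791 to 5281914), with 4.28 to 5.75 (NCU09926 at 3.64 without mannose replicate 3). *gh11-2* headed a run of 4 with NCU07224, NCU07222 and *hcp-1* on chromosome V (6198659 to 6211631), from 1.03 to 6.56. NCU04400 lay between NCU04401 and NCU10107 in a run that also held NCU10110, a 3-hydroxyisobutyrate dehydrogenase, on chromosome IV (3482495 to 3489745), from 2.98 to 5.62. Of the 10 largest increases, 4 (*gh10-2*, *gh3-7*, NCU07224 and NCU04400) stood in such runs, as did 72 of all 862 genes that rose. How many runs would arise with called genes placed at random was not worked out. Whether called genes cluster beyond that was not tested. Among the runs that fell, NCU08531 to NCU10276 on chromosome III (5028419 to 5038689) held 4 genes, from -3.47 to -2.67, and NCU06614 to NCU06616 on chromosome IV (1808501 to 1816216) held 3, from -4.22 to -1.71. The alpha-xylosidase NCU04885 lay between NCU04884 and NCU04886, which also fell (IV, 621744 to 632867), NCU04884 only by -1.02 and not called without xylose replicate 1 or 2 or mannose replicate 2 (-0.99 to -0.91). *hcp-1* was not called without xylose replicate 2 (0.79) or mannose replicate 1 (0.97). Strand was not stated for the counting, so reads of overlapping neighbours could not be told apart.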

How the data were processed

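Mycelial RNA was sequenced from 30 samples, 3 for each of 10 carbon sources, which the study calls biological replicates. The authors deposited raw counts of reads per gene, made by keeping reads of high base quality, mapping with TopHat2 2.0.4 to predicted transcripts of the OR74A genome and counting with HTSeq 0.6.0. Reads that were ambiguous or mapped to several places entered no gene, and strand was not stated. The rows that name no gene were set aside and held 5.56% to 9.75% of reads in the 6 xylose and mannose samples, which left 13445035 to 19300216 counts.

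The fit used edgeR 4.0.16 in R 4.3.3, with limma 3.58.1 beneath it: filterByExpr, TMM scaling and the quasi-likelihood test in 1 fit over all 30 samples, which share an estimate of the spread. Benjamini-Hochberg adjustment covered the 8501 genes kept, and 1257 were not tested. A gene was called at more than 2-fold and an adjusted p below 0.01. Xylose and mannose were also each compared with the mean of the other 8 sources. Figures used log2 of CPM plus 1. The fitting functions were tested on simulated counts with known changes. An exact permutation test of 3 against 3 samples cannot give a p below 0.1 and was not used.

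The text names the 10 largest increases and decreases among called genes with a mean of at least 10 CPM in the higher group and no overlap, members of 17 gene lists, and runs of at least 3 neighbouring called genes. The lists and the comparison were chosen with earlier results of these data known, and 4 further lists after seeing the values. From the 17 lists 242 entries were kept, and 12 without annotation and 7 annotated against their role were left out. Gene IDs were matched to RefSeq for 9757 of 9758 genes, and products came from annotation in the study's supplement for 4390. Log2 fold change and gene length had a Spearman correlation of 0.13 over 8500 genes, which are not independent. No promoter sequence was analysed here. The alternatives were DESeq2 1.42.0, no TMM scaling, no filter on low counts, the 6 samples alone, a replicate block, a covariate for reads outside genes, replicates 2 and 3 only, a test against a fold change of 2, no top 10 genes, and each replicate left out. List counts without mannose replicate 2 were added after seeing the data.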

Additional observations from a re-analysis of the deposited data

How the results depend on the processing

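Of the 15 alternatives, the test against a fold change of 2 moved the counts most, to 355 genes higher and 178 lower in xylose than in mannose (862 and 569 with a test against no change), 75 called in xylose against the other 8 sources (261) and 424 in mannose against them (1164). All were among the genes first called, since that test asks more of the same values. With each xylose or mannose sample left out in turn, the counts were 815 to 920 higher and 546 to 639 lower, 228 to 277 for xylose against the others and 1069 to 1280 for mannose against them. DESeq2 gave 870 and 583, no TMM scaling 940 and 500, and the 6 samples alone 763 and 397. With a replicate block the counts were 866 and 568, and 262 and 1162. Same-numbered xylose and mannose samples correlated at 0.24, 0.078 and 0.30 in their deviations, and differently numbered ones at -0.34 to 0.1. Replicate 1 had the lowest share of reads outside genes in both groups, 2.64% in xylose and 2.8% in mannose. The main fit did not pair the samples by number, and whether same-numbered samples share a source of variation was not tested. Of 124 called genes named in the text, 84 kept direction and call under every alternative. The test against a fold change of 2 ended 39 of these calls, the 6 samples alone 16, replicates 2 and 3 only 11, the covariate 4, no TMM scaling 2 and the replicate block 1. The sign turned for *acu-3* without mannose replicate 2 (0.24, and -2.83 at the other end of its leave-one-out range), where a single sample set the value, and for a pair of genes near 0 that were never called, *clr-2* (0.16 with replicates 2 and 3 only, -0.23 to 0.091 with 1 sample left out) and *eas* (0.00063 without TMM scaling, 0.0087 with the covariate, -0.23 to 0.089 with 1 sample left out). The cause was not tested for these. Groups of 3 limit what can be called, and genes with few counts in both sugars were not tested.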

Other observations

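Further groups of genes were assembled after the values had been seen, so their counts are given as a description. All 7 genes of a fatty acid synthesis list rose in xylose, against 10.1% of all genes tested (list median 3.93, all genes tested -0.03). The count was the same without mannose replicate 2. *cel-1* and *cel-2*, the subunits of fatty acid synthase, were at 194, 195 and 174 CPM and 285, 276 and 231 CPM in xylose, and at 6.61, 25.5 and 4.97 CPM and 9.07, 31.7 and 6.51 CPM in mannose (3.93 ± 0.49 and 4.07 ± 0.46). *ods*, a delta-12 desaturase, was at 565, 614 and 553 and 21.1, 50.2 and 24.3 CPM (4.18 ± 0.31). The xylose samples were several times above the highest mannose sample, replicate 2, in all 3, and without that sample *cel-1* and *cel-2* differed by 5.03 and 5.09. NCU08976, a fatty acid elongase, NCU08535, acetyl-CoA carboxylase, NCU09497, a desaturase, and NCU06783, ATP citrate lyase, which makes cytosolic acetyl-CoA, rose by 4.44, 2.72, 2.75 and 1.68. NCU06783 was at 2.26 without mannose replicate 3 and was not called in a fit of the 6 samples alone (adjusted p = 0.0165). Against the other 8 sources all 7 were called lower in mannose and 4 were called higher in xylose.

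Of 47 genes of amino acid synthesis 27 rose (57.4%, against 10.1% of all genes tested) and none fell (median 1.13). The count was 28 without mannose replicate 2. Against the other 8 sources 23 were called lower in mannose and 1 higher in xylose (7.89% and 2.14% of all genes tested). Of 49 genes of ribosome assembly and RNA polymerase I 39 rose (79.6%, against 10.1% of all genes tested) and none fell (median 2.14). Without mannose replicate 2, 37 rose. NCU01638, the largest subunit of RNA polymerase I, which transcribes ribosomal RNA genes, was at 34.7, 36.5 and 31.4 CPM in xylose and 2.77, 1.54 and 2.91 CPM in mannose (3.82 ± 0.24), and NCU03702, fibrillarin, which methylates ribosomal RNA, at 112, 82.3 and 81.2 and 11.1, 6.97 and 8.20 CPM (3.40 ± 0.24). In both the mannose samples were uniformly low. Against the other 8 sources 39 of the 49 were called lower in mannose (7.89% of all genes tested were) and none was called in xylose.

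A pair of genes with 1 annotation, acetolactate synthase, moved in opposite directions. NCU07982 was at 376, 482 and 678 CPM in xylose and 12.8, 10.7 and 15.9 CPM in mannose (5.28 ± 0.33), and NCU08771 at 316, 329 and 457 and 8580.1, 4256 and 11286 CPM (-4.45 ± 0.39). NCU06138, annotated as a quinate permease, rose (4.57, and 5.41 in xylose against the other 8 sources), and NCU00721, a proline-specific permease, fell (-3.61). These 4 genes were picked after their values were seen.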
